A study of Mus musculus with 12 samples.

Results

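Of the genes whose RNA was lower on knockdown of LDB1 in induced MEL cells, 97 were higher again both with full-length LDB1 and with a shortened LDB1. They include red cell surface proteins (Rhag, Ermap), a cytokine receptor subunit (Csf2rb2), the erythroid factor Sox6, the translational regulator Cpeb4 and the survival protein Bcl2. MEL is a mouse erythroleukemia line that makes hemoglobin when induced. Genes were taken where the group mean in CPM (gene reads scaled to a common library total, with 0.5 CPM added to each mean) met 3 criteria. The control mean had to be at least 2 times the knockdown mean, the mean of each rescue line at least 7/4 of the knockdown mean, and the control mean at least 5 CPM. Of 37991 genes counted, 10446 reached the control level, 844 of those met the knockdown criterion, and 183 and 202 of the 844 met the full-length and the shortened-construct criterion. Both criteria were met by 99, and Ldb1 and Hbb-bs were then left out, which leaves 97 genes, 94 of them with a gene symbol. Because these genes were chosen by their values, the ratios to knockdown describe them and carry no test.

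Polyadenylated RNA was sequenced from 12 libraries in 4 groups of 3. The FL group was the knockdown line carrying a full-length Ldb1 construct, the delta45 group was the knockdown line carrying an Ldb1 construct with the deletion named delta 4/5, KD was the knockdown line alone, and control was the line that the labels call wild type. All 4 groups were induced MEL cells, and FL and delta45 kept the knockdown. The agent and time of induction, the clones used and whether replicates were separate cultures are not stated in the labels, so the p-values measure the spread between libraries, which may be technical.

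LDB1 is an adaptor protein without DNA-binding activity of its own. Through LMO2 it joins GATA1 and TAL1 on erythroid genes, and by self-association it brings distant enhancers to promoters, most famously at the beta-globin locus. Genes bound by this complex include those for red cell surface proteins, heme enzymes and regulators of erythroid maturation.

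Ldb1 itself had 3694, 3408 and 3207 CPM in FL, 749.9, 781 and 764 CPM in delta45, 159, 132 and 97.03 CPM in KD and 743, 772 and 637 CPM in control. KD was below control by a log2 difference of -2.47 (SE 0.16, edgeR adjusted p = 1.55e-07), FL was 4.79 times control, and delta45 overlapped control. Reads of the constructs are counted on the same gene, so these levels cannot separate the resident transcript from the introduced one. The erythroid markers were present in each library, their summed level being 16700 to 17300 CPM in FL, 4500 to 4920 in delta45, 2890 to 5310 in KD and 4720 to 5820 in control. Megakaryocyte markers summed to 2840 to 2940 CPM in FL, 178 to 196 in delta45, 803 to 845 in KD and 847 to 940 in control, while the other marker lists (myeloid, mast, lymphoid, and stromal and endothelial) summed to at most 74.8 CPM in any library, with the mast cell markers Mcpt8 and Ms4a2 at 0 throughout. The part of these marker shifts in the results was not tested. In these bulk libraries, fewer cells of a type and less RNA per cell cannot be told apart. Gene reads ranged from 8783970 to 20464959 per library.

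The knockdown libraries were not alike for these genes. The median member lay 1.05, 1.55 and 1.84 log2 units below the control mean in KD replicates 1, 2 and 3 (medians of -1.047, -1.546 and -1.84), against medians of 0.466, 0.151 and 0.12 in the FL libraries, 0.077, -0.02 and -0.061 in the delta45 libraries and -0.065, -0.152 and 0.17 in the control libraries. KD replicate 1 was the highest of the KD libraries for 71 of the 97 genes and KD replicate 3 the lowest for 69. The median coefficient of variation of the members was 12.6% in FL, 8.8% in delta45, 35.4% in KD and 14.9% in control, against 9.9%, 8.2%, 20.0% and 11.5% over all tested genes. Applied without KD replicate 1, the same criteria gave 258 genes, 93 of them among the 97. They gave 89 genes (72 shared) without KD replicate 2 and 62 (55 shared) without KD replicate 3. Leaving out any 1 of the 12 libraries in turn, 41 of the 97 stayed in every time. Ermap, Csf2rb2, Sox6 and Cpeb4, named at the opening, were among these 41. Rhag was not, being lost without KD replicate 2 or control replicate 3, nor was Bcl2, lost without KD replicate 3. Other genes described below and not among the 41 include Cd24a, Tspan33, Atp2b4, Aqp9, Zfp329, Nr1d2, Ccnt2, Pou2f1, Khdc4 and Trio. Scd1, Msmo1, Ogt, Hyal1, Yod1, Tmem131, Epm2aip1 and Xlr3a were not among them either.

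**Figure D1:**
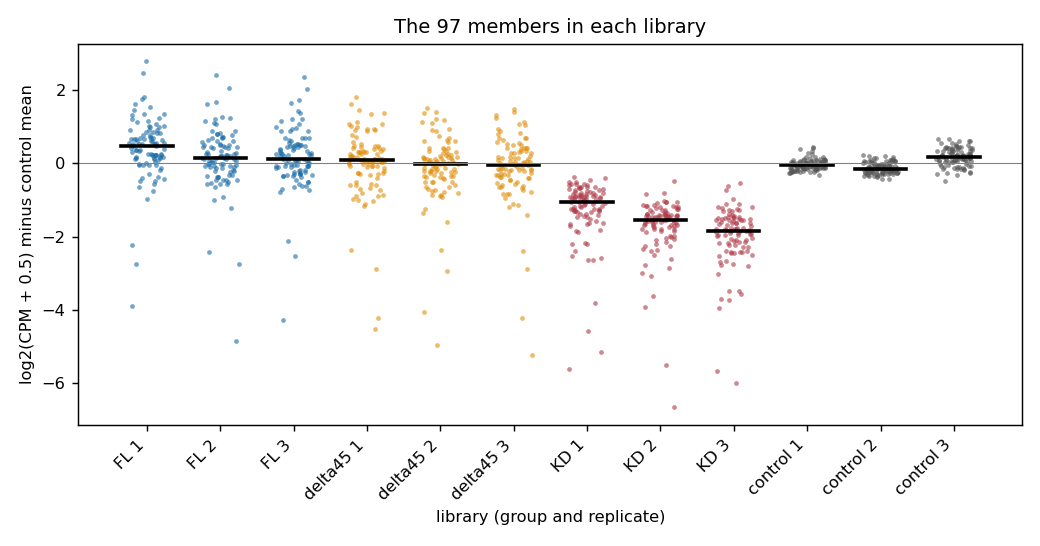
Each point is 1 of the 97 genes in 1 library, given on the y axis as log2(CPM + 0.5) minus the mean of the control libraries, and black bars are medians over the genes. The KD medians lie at -1.047, -1.546 and -1.84, and the FL and delta45 medians lie between -0.061 and 0.466.

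The knockdown criterion was also read in each KD library after choosing genes without it. The same control means entered both steps, so part of the excess over all genes is fixed by the choice. Of the 258 genes chosen without KD replicate 1, 55 (21.3%) reached a control level at least 2 times that library, against 6.63% of all genes at 5 CPM or more in control. The corresponding numbers were 73 of 89 (82.0%, against 10.2%) in KD replicate 2 and 53 of 62 (85.5%, against 14.0%) in KD replicate 3.

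Transcript length and base composition also moved with the libraries. The 93 members with an annotated transcript had a median length of 4888 bases and a GC share of 44.9%, against 3080 bases and 50.7% over all tested genes. Their median 3′ untranslated region was 2255 bases, against 1083. When all tested genes were split into 5 equal groups by length, the longest group (5016 bases or more, holding 45 members) had medians of 0.381, 0.174 and 0.14 relative to control in FL, 0.354, 0.263 and 0.256 in delta45, 0.086, -0.106 and -0.444 in KD and -0.033, -0.045 and 0.075 in control. The lowest-GC group, with 46 members, had medians of 0.268, 0.169 and 0.216 in FL, 0.423, 0.253 and 0.231 in delta45, 0.061, -0.321 and -0.267 in KD and -0.105, -0.163 and 0.268 in control. After each library's median deviation by length and GC was taken off, 57 of the 93 still met the criteria. The median ratios were then 2.40 for control over KD, 2.67 for FL over KD and 2.11 for delta45 over KD, against 2.67, 3.21 and 2.65 on TMM-scaled values before it. Csf2rb2, Cd24a, Aqp9, Cpeb4, Tet2 and Khdc4 were among those that still met them. Atp2b4, Bcl2, Ccnt2, Abcg2 and Scd1 were among those that did not, as were Nr1d2, Pou2f1, Uhmk1, Stard4, Ogt, Zfp329 and Tmem131. The part of length and base composition in the results was not tested beyond this correction.

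**Figure D2:**
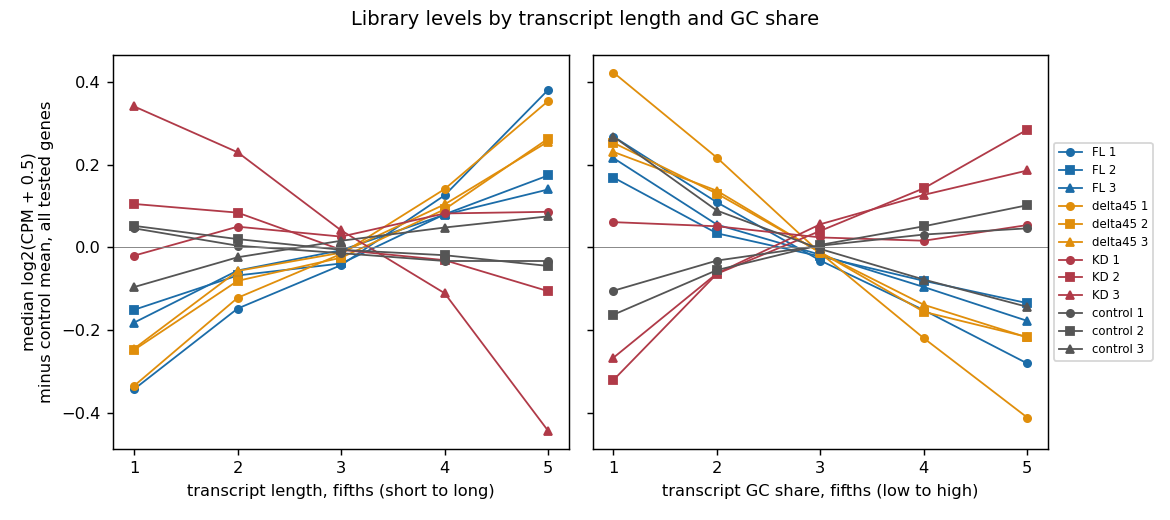
The y axis gives the median log2(CPM + 0.5) minus the control mean over all tested genes in each of 5 equal groups of transcript length (left) or GC share (right), with 1 line per library. In the longest group the FL and delta45 libraries lie between 0.14 and 0.381 and KD replicate 3 lies at -0.444.

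From here on, levels are CPM scaled by TMM, which multiplies each library by a single factor, assuming that most genes do not change between libraries. Each difference comes from the edgeR quasi-likelihood test fitted over 12837 genes. Genes were called where the Benjamini-Hochberg adjusted p was below 0.05. All 97 genes passed the filter on low counts. Mean levels ran from 2.64 to 2470 CPM in FL, 1.58 to 644 in delta45, 0.294 to 311 in KD and 5.01 to 4303 in control. In the contrasts that chose them, 97 of 97 were called lower in KD than in control (24.1% of all tested genes were), 97 higher in FL than in KD (26.3% of all) and 96 higher in delta45 than in KD (29.2% of all), and nothing is read from these counts. The median ratios of the selection were 2.66 for FL over KD, 2.72 for delta45 over KD and 2.58 for control over KD. By the same choice, every KD library lay below all 9 others in 96 genes (6.75% of all tested genes), and nothing is read from this either. The exception was Lcorl, a transcriptional co-regulator named here after its values were seen, with 75.8, 63.3 and 64.8 CPM in FL, 46.2, 32.8 and 37.2 CPM in delta45, 37.8, 14.2 and 11.99 CPM in KD and 80.7, 79.1 and 159 CPM in control.

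Between the rescue lines, FL was called above delta45 in 31 of 97 genes, where 25.8% of all tested genes were called higher, and below it in 4, where 27.0% of all were called lower. The median difference was 0.26 on the log2 scale, against -0.01 over all tested genes. The criteria asked the same ratio to KD of both lines on library totals and did not use the difference between them. The differences here are on TMM-scaled values, where the same criteria asked more of FL than of delta45. Median ratios to KD in the selection were 2.66 in FL and 2.72 in delta45. With TMM, median log2 differences from KD were 1.77 in FL and 1.51 in delta45. The choice of genes was therefore not neutral for the counts of FL against delta45, and its part in them was not tested. With library totals in place of TMM, which moved the median of all tested genes by -0.28 on the log2 scale, the counts were 18 higher and 16 lower. Of all 12837 tested genes, 2099 were then called higher and 5080 lower. With the length and GC correction, chosen after seeing the data, the member counts were 43 and 5, against 3848 and 3819 of all tested genes. Among the 41 genes that stayed in without any 1 library, 14 were higher and 2 lower, with a median of 0.31. Among the 258 genes chosen without KD replicate 1, FL was called higher in 54 and lower in 22, with a median of 0.13.

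Against control, FL was called higher in 29 members and lower in 8, where 28.1% and 31.2% of all tested genes were. The delta45 line was called higher than control in 15 and lower in 22, where 31.9% and 32.5% of all were. Median differences from control were 0.26 in FL and -0.01 in delta45 on the log2 scale. Both comparisons use the same control libraries, and the criteria read all these means against KD. Library totals gave 18 higher and 13 lower for FL, against 2377 and 5098 of all 12837 tested genes. The length and GC correction gave 26 higher and 20 lower for FL, against 4161 and 4245 of all. For delta45 it gave 13 higher and 44 lower, against 4455 and 4445 of all.

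**Figure D3:**
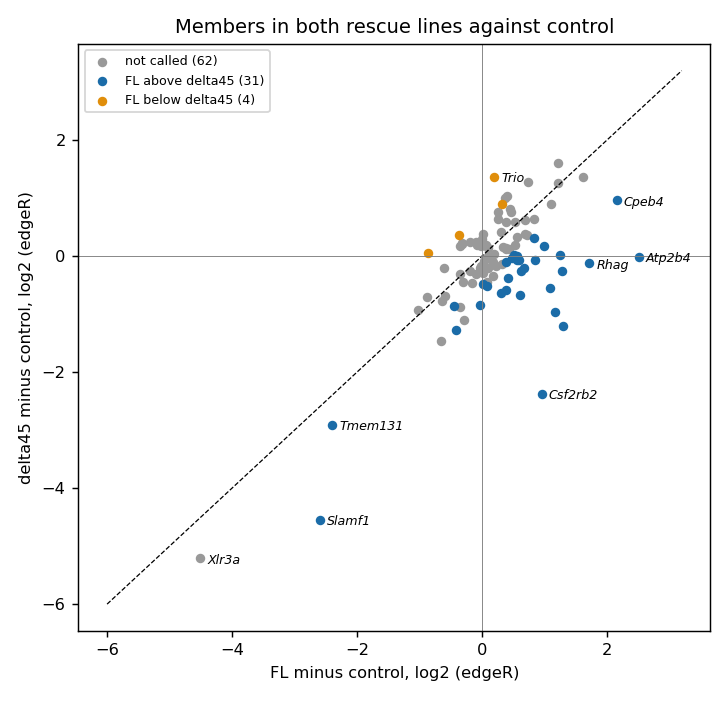
Each point is 1 of the 97 genes, with its log2 difference from control in FL on the x axis and in delta45 on the y axis; both axes share the control libraries, and the dashed line marks equal values. Blue points are the 31 genes called higher in FL than in delta45 and orange points the 4 called lower, with Csf2rb2 and Atp2b4 far to the right of the line and Tmem131, Slamf1 and Xlr3a at the lower left.

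Surface proteins, receptors and transporters had the largest median gap between the rescue lines among the 6 role groups set out here. Roles were assigned after the members were known, so their counts are descriptions. Emilin2, a secreted matrix glycoprotein and no surface protein, was counted in this group and was called higher in FL than in delta45. FL was called above delta45 in 10 of these 18 genes, and the other 8 were not called, with a median difference of 0.73 on the log2 scale. Of all tested genes, 25.8% were called higher and 27.0% lower. FL was called above control in 9 and below it in 2, while delta45 was called below control in 8 and the other 10 were not called. Over all tested genes these shares were 28.1% above and 31.2% below control for FL, and 32.5% below control for delta45.

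Promoters were read for the 69 members found in the RefSeq promoter table (GRCm38.p6), as 300 bases from 250 before to 50 after the start. Those of 4 membrane-protein genes with a GATA motif are shown, since GATA1 is the DNA-binding partner of the LDB1 complex and all 4 genes were called higher in FL than in delta45. They were chosen after their values were seen. Among the other genes counted in that role group the motif and the call did not always coincide: Slamf1 has the motif and was called higher, L1cam and Slc35a3 have it and were not called, and Abcg2, Aqp9 and Emilin2 lack it and were called higher. Among the remaining members with the motif, Morf4l1, Rint1, Rnpc3, Tmem131l and Ubash3a were called higher. Ddx3y, Kdm5d, Mdm4, Pgm2l1 and Uhmk1 were not called. Hyal1, with the motif at -31, was called lower. Capitals mark a GATA motif on either strand, which is AGATAA, its variant AGATAG, or either word with T as the starting base, and each promoter is written 5′ to 3′ in the direction of transcription.
Csf2rb2, chr15:78305672-78305971, minus strand: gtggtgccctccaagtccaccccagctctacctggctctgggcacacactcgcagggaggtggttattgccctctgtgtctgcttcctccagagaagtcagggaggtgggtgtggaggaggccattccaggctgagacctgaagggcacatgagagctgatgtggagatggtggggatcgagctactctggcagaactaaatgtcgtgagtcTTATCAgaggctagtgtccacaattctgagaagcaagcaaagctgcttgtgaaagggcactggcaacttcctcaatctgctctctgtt
Rhag, chr17:40810899-40811198, plus strand: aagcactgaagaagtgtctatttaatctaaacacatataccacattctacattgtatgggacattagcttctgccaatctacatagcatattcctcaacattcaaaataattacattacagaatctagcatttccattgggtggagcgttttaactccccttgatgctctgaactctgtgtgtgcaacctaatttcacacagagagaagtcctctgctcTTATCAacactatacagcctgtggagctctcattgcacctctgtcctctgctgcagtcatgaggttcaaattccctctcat
Ermap, chr4:119189946-119190245, minus strand: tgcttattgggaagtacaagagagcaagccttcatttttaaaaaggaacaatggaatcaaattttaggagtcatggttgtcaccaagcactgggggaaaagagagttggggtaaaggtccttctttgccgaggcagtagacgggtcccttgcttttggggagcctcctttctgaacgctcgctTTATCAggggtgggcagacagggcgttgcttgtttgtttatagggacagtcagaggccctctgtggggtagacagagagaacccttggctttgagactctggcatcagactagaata
Atp2b4, chr1:133753698-133753997, minus strand: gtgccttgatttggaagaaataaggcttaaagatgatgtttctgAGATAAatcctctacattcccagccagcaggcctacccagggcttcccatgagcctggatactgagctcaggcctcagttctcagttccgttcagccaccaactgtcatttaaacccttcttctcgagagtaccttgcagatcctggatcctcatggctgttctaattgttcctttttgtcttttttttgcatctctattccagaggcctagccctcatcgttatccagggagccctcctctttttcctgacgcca
The motif began 38 bases before the start of Csf2rb2 (position -38), at -31 in Rhag, at -67 in Ermap and at -206 in Atp2b4. A GATA motif was present in 18 of the 69 member promoters (26.1%), against 18.8% of the promoters of tested genes and 30.2% of all 27025 promoters in the table. Searched on both strands, the E-box CANNTG was found in 60.9%, against 62.5% of the promoters of tested genes and 72.1% of all. It can overlap a GATA motif. CTG followed by 7 or 8 bases and AGATAA, the spacing of GATA1 with TAL1, occurred in 1.4%, against 0.4% and 0.6%. The KLF1-type motifs CCACACCC and CCACGCCC were in 14.5%, against 14.0% and 8.7%, the NF-E2 core TGAGTCA in 5.8%, against 3.3% and 5.2%, the ETS motif CCGGAA in 30.4%, against 29.9% and 15.2%, and TATAAA in 5.8%, against 6.2% and 14.2%. The members' shares for CACCC, ETS and TATA letters lay near those of expressed genes rather than those of the whole table. These matches are letters in a window and not binding sites.

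Csf2rb2, the beta subunit of the mouse interleukin-3 receptor, had 2239, 1824 and 1993 CPM in FL, 202, 201 and 197 CPM in delta45, 43.3, 68.8 and 79.4 CPM in KD and 949, 1079 and 1089 CPM in control. Its FL libraries lay above all control libraries and its delta45 libraries lay between KD and control. FL exceeded delta45 10.1-fold, a log2 difference of 3.34 (SE 0.19, edgeR adjusted p = 1.3e-08), and delta45 differed from control by -2.38 (SE 0.18, edgeR adjusted p = 2e-07). Csf2rb, a closely similar gene that shares sequence with it, had 2689, 2343 and 2534 CPM in FL, 459, 459 and 459 CPM in delta45, 305, 369 and 424 CPM in KD and 1549, 1733 and 1872 CPM in control. Reads that align to both genes alike are counted for neither, so the value of each is uncertain. Csf2rb was not a member because its delta45 over KD ratio was 1.27.

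Rhag, whose product is the Rh-associated glycoprotein of the red cell membrane, had 935, 842 and 882 CPM in FL, 282, 229 and 233 CPM in delta45, 147, 96.97 and 122 CPM in KD and 253, 227 and 329 CPM in control. Its delta45 and control libraries overlapped and its FL libraries stood above both. The FL to delta45 difference was 1.84 (SE 0.17, edgeR adjusted p = 1.07e-06), and that of delta45 to control was -0.12 (SE 0.16, edgeR adjusted p = 0.525). Ermap, an erythroid transmembrane protein that carries the Scianna blood group in humans, showed 463, 383 and 403 CPM in FL, 223, 214 and 214 CPM in delta45, 64.3, 99.7 and 88.7 CPM in KD and 312, 352 and 350.2 CPM in control. All FL values exceeded all control values and all delta45 values lay below them. The difference between FL and delta45 was 0.94 (SE 0.14, edgeR adjusted p = 9.44e-05), and FL against control was 0.30 (SE 0.14, edgeR adjusted p = 0.0803), which did not pass the test.

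Cd24a, a lipid-anchored surface glycoprotein, had 1118, 1080 and 1152 CPM in FL, 416, 374 and 370.4 CPM in delta45, 284, 125 and 163 CPM in KD and 397, 368 and 618 CPM in control. FL stood apart from the other groups, and delta45 overlapped control. FL exceeded delta45 by 1.53 (SE 0.26, edgeR adjusted p = 0.000234). Tspan33, a tetraspanin of erythroid progenitors, had 489.5, 504 and 523 CPM in FL, 345, 351 and 359 CPM in delta45, 103, 177 and 259 CPM in KD and 674, 695 and 564 CPM in control, and here FL and delta45 both lay below every control library. FL against delta45 was 0.52 (SE 0.23, edgeR adjusted p = 0.0731), past no threshold although the libraries did not overlap.

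**Figure D4:**
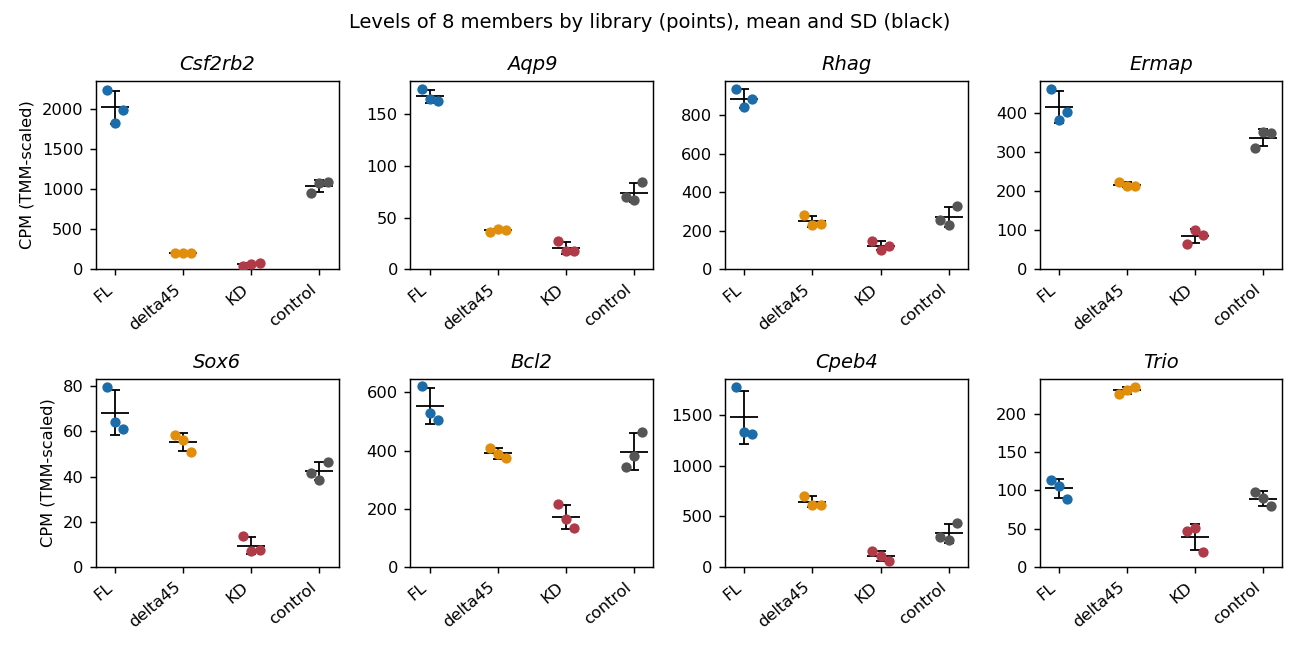
Points are single libraries and black marks the mean and SD of 3, in TMM-scaled CPM on linear axes that start at 0, for 8 members in FL, delta45, KD and control. FL stands highest in all but Trio, where delta45 does, and KD is lowest in each.

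Other proteins of this group move ions, water or nucleotides. Atp2b4, a plasma membrane calcium pump, had 2944, 2265 and 2202 CPM in FL, 455, 421 and 412 CPM in delta45, 274, 188 and 110.3 CPM in KD and 431, 397 and 468 CPM in control. FL was 5.75 times delta45, a log2 difference of 2.52 (SE 0.25, edgeR adjusted p = 2.32e-06), and delta45 overlapped control, with a difference of -0.01 (SE 0.24, edgeR adjusted p = 0.977). Aqp9, an aquaglyceroporin that passes water and glycerol, had 174, 165 and 163 CPM in FL, 36.4, 39.01 and 38.2 CPM in delta45, 27.6, 17.7 and 17.5 CPM in KD and 70.03, 67.4 and 84.6 CPM in control. Its FL libraries were above and its delta45 libraries below those of control. The FL to delta45 difference was 2.14 (SE 0.16, edgeR adjusted p = 1.68e-07). Slc17a9, a vesicular nucleotide transporter, had 24.5, 20.7 and 22.2 CPM in FL, 17, 17.4 and 18.1 CPM in delta45, 6.62, 3.58 and 3.15 CPM in KD and 13.9, 14.4 and 12.5 CPM in control. FL and delta45 lay above all control libraries, and FL against control was 0.72 (SE 0.21, edgeR adjusted p = 0.00873) while delta45 against control was 0.36 (SE 0.21, edgeR adjusted p = 0.139). With library totals the first of these was 0.50 (edgeR adjusted p = 0.0729).

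Slamf1, a self-binding receptor known from lymphocytes and blood stem cells, stayed far below control in both rescue lines. It had 4.997, 4.995 and 7.998 CPM in FL, 1.499, 1.72 and 1.51 CPM in delta45, 0.557, 0.325 and 0.0875 CPM in KD and 34.8, 32.8 and 43.2 CPM in control. FL was above delta45 by 1.95 (SE 0.28, edgeR adjusted p = 6.34e-05) and below control by a log2 difference of -2.60 (SE 0.25, edgeR adjusted p = 1.49e-06). Tspo2, an erythroid relative of the mitochondrial translocator protein, had 31.02, 27.8 and 29.4 CPM in FL, 29.6, 29.3 and 37.7 CPM in delta45, 9.75, 9.87 and 11.1 CPM in KD and 29.6, 29.1 and 25.9 CPM in control. Its FL, delta45 and control libraries overlapped, and FL against delta45 was -0.13 (SE 0.13, edgeR adjusted p = 0.417).

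Among the 17 transcription and chromatin genes, FL was called above delta45 in 5, a share near the 25.8% of all tested genes, and the other 12 were not called. Sox6, a factor that promotes definitive erythropoiesis and represses embryonic globin, had 79.6, 64.4 and 60.98 CPM in FL, 58.6, 56 and 50.97 CPM in delta45, 13.7, 7.05 and 7.35 CPM in KD and 41.7, 38.7 and 46.6 CPM in control. Both rescue lines lay above every control library. FL against control was 0.69 (SE 0.20, edgeR adjusted p = 0.00929), delta45 against control 0.38 (SE 0.20, edgeR adjusted p = 0.107), and FL against delta45 0.31 (SE 0.20, edgeR adjusted p = 0.209). With library totals FL against control was 0.47 (edgeR adjusted p = 0.0797). Zfp329, a zinc finger gene, had 40.9, 21.03 and 22.8 CPM in FL, 42.3, 34.1 and 33.7 CPM in delta45, 8.15, 3.797 and 3.33 CPM in KD and 11.5, 10.02 and 14.5 CPM in control. All libraries of both rescue lines exceeded all control libraries, by 1.22 (SE 0.31, edgeR adjusted p = 0.00408) in FL and 1.61 (SE 0.31, edgeR adjusted p = 0.000488) in delta45.

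On values without the length and GC correction, regulators with general roles were among the members nearest to control. Of those described here, Tet2 still met the criteria after that correction. Nr1d2, Ccnt2 and Pou2f1 did not. Their FL over KD ratios were then 1.662, 1.483 and 1.403, and their delta45 over KD ratios 1.479, 1.25 and 1.509. Tet2, which oxidizes methylated cytosine, had 69.96, 45.3 and 42.3 CPM in FL, 58.5, 53.9 and 50.4 CPM in delta45, 28.1, 17.4 and 12.7 CPM in KD and 52.3, 47.2 and 47.5 CPM in control. Nr1d2, a nuclear receptor of the circadian clock, had 70.8, 62.5 and 63.3 CPM in FL, 75.5, 54.3 and 54.5 CPM in delta45, 38.3, 21.9 and 25.99 CPM in KD and 60.4, 52.8 and 70.2 CPM in control. In both genes the rescue and control libraries overlapped. Differences of FL and delta45 from control were 0.10 (SE 0.24, edgeR adjusted p = 0.742) and 0.15 (SE 0.24, edgeR adjusted p = 0.599) for Tet2, and 0.10 (SE 0.19, edgeR adjusted p = 0.682) and 0.01 (SE 0.19, edgeR adjusted p = 0.978) for Nr1d2. Ccnt2, the cyclin partner of an elongation kinase, had 153, 116 and 126 CPM in FL, 134, 114 and 107 CPM in delta45, 67.7, 54.6 and 42.96 CPM in KD and 128, 118 and 152 CPM in control, with FL at -0.01 (SE 0.17, edgeR adjusted p = 0.949) and delta45 at -0.17 (SE 0.17, edgeR adjusted p = 0.394) relative to control. Pou2f1, the octamer-binding factor, lay close to the FL criterion with 61.5, 44.4 and 42.8 CPM in FL, 64.9, 50.7 and 54.6 CPM in delta45, 32.5, 21.2 and 13.7 CPM in KD and 50.9, 43.4 and 52.4 CPM in control, and its rescue and control libraries overlapped.

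RNA-binding and RNA-processing proteins made up 12 members, with FL called above delta45 in 3, near the 25.8% of all tested genes, and below it in 1, where 27.0% of all were. Cpeb4, a translational regulator that acts in terminal erythroid differentiation, had 1774, 1338 and 1318 CPM in FL, 704, 615 and 614 CPM in delta45, 156, 110.2 and 60.8 CPM in KD and 293, 264 and 434 CPM in control. The groups did not overlap, and both rescue lines lay above control. Its smaller rescue ratio was the largest of all members, 11.03 for FL over KD and 5.83 for delta45 over KD. FL exceeded delta45 by 1.20 (SE 0.28, edgeR adjusted p = 0.00248) and control by 2.16 (SE 0.28, edgeR adjusted p = 2.67e-05), and delta45 exceeded control by 0.96 (SE 0.27, edgeR adjusted p = 0.00759).

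Rbm3, a cold-inducible RNA-binding protein, was higher in delta45 than in FL. It had 51.7, 37.8 and 41.99 CPM in FL, 70.8, 64.7 and 60.6 CPM in delta45, 17.5, 14.8 and 11.6 CPM in KD and 37.3, 37.3 and 31.1 CPM in control. The rescue lines did not overlap, with a log2 difference of FL from delta45 of -0.58 (SE 0.16, edgeR adjusted p = 0.00686). Pnisr, a serine- and arginine-rich nuclear protein, had 225, 170 and 185 CPM in FL, 176, 158 and 153 CPM in delta45, 61.8, 31.6 and 27.4 CPM in KD and 149.6, 135 and 159.5 CPM in control, and Khdc4, a KH-domain protein of splicing, had 203, 194 and 204 CPM in FL, 187, 178 and 174 CPM in delta45, 95.4, 75.9 and 73.2 CPM in KD and 171, 157 and 197 CPM in control. FL and delta45 libraries overlapped in Pnisr and lay just apart in Khdc4, with FL against delta45 at 0.25 (SE 0.23, edgeR adjusted p = 0.384) for Pnisr and 0.16 (SE 0.12, edgeR adjusted p = 0.287) for Khdc4, neither past the test. Khdc4 lay near control, at 0.19 (SE 0.12, edgeR adjusted p = 0.174) in FL and 0.04 (SE 0.12, edgeR adjusted p = 0.791) in delta45.

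Signalling and survival genes numbered 11, and FL was called above delta45 in 4 and below it in 1, where 25.8% and 27.0% of all tested genes were. Bcl2, the founding inhibitor of mitochondrial apoptosis, had 623, 529 and 505 CPM in FL, 411, 388 and 373 CPM in delta45, 217, 166 and 135 CPM in KD and 343, 383 and 465 CPM in control. Its delta45 and control libraries overlapped, and its FL libraries lay above both. FL exceeded delta45 by 0.50 (SE 0.16, edgeR adjusted p = 0.0205), a call lost with library totals (adjusted p = 0.312 in edgeR), without FL replicate 1 (0.0818) and without delta45 replicate 3 (0.0538). Ppp1r15b, which directs a phosphatase to the translation factor eIF2alpha, had 857, 736 and 708 CPM in FL, 535, 514 and 511 CPM in delta45, 205, 232 and 186 CPM in KD and 516, 513 and 533 CPM in control. FL stood apart and delta45 overlapped control, with FL against delta45 at 0.56 (SE 0.11, edgeR adjusted p = 0.000658) and delta45 against control at -0.001 (SE 0.11, edgeR adjusted p = 0.992).

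Trio, a guanine nucleotide exchange factor, ran the other way. It had 114, 105 and 88.3 CPM in FL, 225, 231 and 234 CPM in delta45, 46.3, 50.6 and 19.7 CPM in KD and 98.2, 89.5 and 79.5 CPM in control. The delta45 libraries lay above all others, while FL and control overlapped. FL differed from delta45 by -1.17 (SE 0.25, edgeR adjusted p = 0.00132), and delta45 from control by 1.37 (SE 0.25, edgeR adjusted p = 0.000312). Uhmk1, a kinase that binds RNA and splicing proteins, had 452, 341 and 339 CPM in FL, 339, 296 and 301 CPM in delta45, 159, 89.1 and 86.9 CPM in KD and 298, 279 and 421 CPM in control. Libraries of both rescue lines overlapped those of control, and the differences from control were 0.18 (SE 0.22, edgeR adjusted p = 0.505) for FL and -0.10 (SE 0.22, edgeR adjusted p = 0.724) for delta45.

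Lipid and sugar metabolism was represented by 9 members, 2 called higher in FL than in delta45, near the 25.8% of all tested genes, and 1 lower, against 27.0% of all. Scd1, the desaturase that makes oleic acid, had 223, 186 and 192 CPM in FL, 86.7, 80.3 and 82.2 CPM in delta45, 70.6, 30.6 and 27.7 CPM in KD and 120.3, 125 and 149.5 CPM in control. The FL libraries lay above and the delta45 libraries below those of control, with FL against delta45 at 1.27 (SE 0.27, edgeR adjusted p = 0.00128). FL against control was 0.60 (SE 0.26, edgeR adjusted p = 0.0621), which did not pass the test. The difference of delta45 from control, -0.66 (SE 0.26, edgeR adjusted p = 0.0406), was no longer called in 10 other settings, among them library totals and leaving out any 1 FL, delta45 or control library, with adjusted p in edgeR of 0.0501 to 0.129. Msmo1, an enzyme of cholesterol synthesis, had 112, 112 and 115 CPM in FL, 94.7, 96.5 and 91.4 CPM in delta45, 15.7, 12.04 and 24.9 CPM in KD and 34.8, 34.6 and 40.2 CPM in control. Both lines stood well above control, by 1.63 (SE 0.19, edgeR adjusted p = 9.12e-06) in FL and 1.37 (SE 0.19, edgeR adjusted p = 3.24e-05) in delta45, and its control over KD ratio of 2.001 was the smallest of the members. Stard4, a cholesterol carrier, had 156, 136 and 136 CPM in FL, 178, 152 and 160.3 CPM in delta45, 51.9, 51.96 and 49.6 CPM in KD and 139, 120.2 and 173 CPM in control, and its rescue libraries overlapped those of control. Relative to control, FL was at -0.02 (SE 0.13, edgeR adjusted p = 0.922) and delta45 at 0.18 (SE 0.13, edgeR adjusted p = 0.232).

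Ogt, the enzyme that adds N-acetylglucosamine to nuclear and cytoplasmic proteins, had 524, 333 and 329.6 CPM in FL, 374, 335 and 315 CPM in delta45, 135, 75.3 and 49.7 CPM in KD and 168, 151 and 230.1 CPM in control. Both rescue lines lay above control, by 1.11 (SE 0.30, edgeR adjusted p = 0.00605) in FL and 0.90 (SE 0.30, edgeR adjusted p = 0.0174) in delta45. The delta45 call was lost without control replicate 1 or 2, with adjusted p in edgeR of 0.06 and 0.0708. Hyal1, a lysosomal hyaluronidase, had 8.54, 5.69 and 6.18 CPM in FL, 11.01, 10.3 and 12.6 CPM in delta45, 3.69, 3.15 and 1.66 CPM in KD and 9.85, 9.72 and 6.75 CPM in control. FL lay below delta45 by a log2 difference of -0.73 (SE 0.26, edgeR adjusted p = 0.0272). The 4 members in that direction were Trio, Rbm3, Hyal1 and a gene with no symbol. The call in Hyal1 was lost without any 1 delta45 replicate or without FL replicate 2 or 3, with adjusted p in edgeR of 0.0548 to 0.107.

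Yod1, a deubiquitinating enzyme, was among the 3 ubiquitin genes, with 41.6, 32.8 and 33.1 CPM in FL, 62.9, 46.9 and 45 CPM in delta45, 12.3, 7.38 and 2.54 CPM in KD and 16.8, 16.9 and 29.8 CPM in control. All libraries of both rescue lines lay above those of control, and delta45 against control was 1.27 (SE 0.36, edgeR adjusted p = 0.00762), while FL against control was 0.74 (SE 0.36, edgeR adjusted p = 0.0947).

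Of the 27 members given no role, FL was called above delta45 in 6, near the 25.8% of all tested genes, and below it in 1, against 27.0% of all. Tmem131, a protein that aids collagen secretion, had the highest CPM of the members in control, a value that is not scaled to length. It had 922, 795 and 743 CPM in FL, 585, 556 and 582 CPM in delta45, 306, 352 and 276 CPM in KD and 4218, 4035 and 4657 CPM in control. Neither line came near control, at -2.39 (SE 0.12, edgeR adjusted p = 7.6e-09) for FL and -2.91 (SE 0.13, edgeR adjusted p = 2.35e-09) for delta45. Epm2aip1, a partner of the glycogen-related protein laforin, had 135, 105 and 114 CPM in FL, 134, 114 and 115 CPM in delta45, 32.5, 14.9 and 13.9 CPM in KD and 45.5, 38.2 and 68.1 CPM in control, and both lines lay above control, by 1.22 (SE 0.28, edgeR adjusted p = 0.00223) and 1.25 (SE 0.28, edgeR adjusted p = 0.00154) in FL and delta45. Dmxl1, a protein of vacuolar proton pump assembly, had 78.4, 63.4 and 56.9 CPM in FL, 77.04, 62.6 and 63.1 CPM in delta45, 26.3, 15.2 and 6.83 CPM in KD and 76.5, 66.4 and 108 CPM in control. Its KD libraries spread from 6.83 to 26.3 CPM and its rescue libraries overlapped control. Adamts13, the protease that trims von Willebrand factor, had 4.89, 5.34 and 4.06 CPM in FL, 4.17, 4.02 and 5.22 CPM in delta45, 0.766, 1.09 and 0.175 CPM in KD and 8.78, 7.02 and 5.81 CPM in control. These levels are low in every group.

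Xlr3b, an X-linked lymphocyte-regulated gene, had 6.56, 4.53 and 5.06 CPM in FL, 3.28, 3.19 and 2.65 CPM in delta45, 1.05, 0.325 and 0.0875 CPM in KD and 6.21, 5.71 and 7.63 CPM in control. Delta45 against control was -1.10 (SE 0.34, edgeR adjusted p = 0.0123), a call lost without delta45 replicate 3 or control replicate 3 (adjusted p = 0.0554 and 0.057 in edgeR). Xlr3a, its neighbour and close copy, had 3.64, 1.63 and 2.65 CPM in FL, 2.15, 1.47 and 1.13 CPM in delta45, 0.766, 0.109 and 0.7 CPM in KD and 64.4, 55.7 and 62.1 CPM in control. Reads that align to both copies alike are counted for neither, so the value of each is uncertain. In Xlr3a both rescue lines stayed far below control.

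Genes just inside and just outside the criteria had nearly the same values. Zfand1 and Ptprn had control means of 5.12 and 5.43 CPM and were in, while 6030468B19Rik, at 4.95 CPM, was not. Msmo1 and Ogt had control over KD ratios of 2.001 and 2.003, and Epb42 and AW549877 had 1.992 and 1.973. The last pair met the other criteria, Epb42 being a component of the red cell membrane skeleton. Ddx3y and Pou2f1 had FL over KD ratios of 1.7502 and 1.79, against 1.744 for Fuom outside. Lcorl and Aqp9 had delta45 over KD ratios of 1.765 and 1.787, against 1.697 for Wdr13 and 1.692 for Mbnl2.

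The gene lists were chosen with earlier results of these data known. Of 12837 tested genes 97 were members, and FL was called above delta45 in 25.8% and below it in 27.0% of all tested genes. The list of erythroid membrane and cytoskeleton genes had 33 tested genes, of which 4 were members (Rhag, Ermap and Cd24a among them). FL was called above delta45 in 20 and below it in 6 of the 33, with a median log2 difference of 0.94. In that list delta45 was called above control in 8 and below it in 11, where 31.9% and 32.5% of all tested genes were. Of 52 tested genes on the list of other erythroid maturation genes, 3 were members (Sox6, Tspan33 and Tspo2), and FL was called above delta45 in 25 and below it in 6. The heme synthesis list had 18 tested genes and 0 members, and FL was called above delta45 in 9 and below it in 3. Of 25 tested genes of the LDB1 complex and its partners, 0 were members. Some other lists with 0 members had wider gaps between FL and delta45. On the hypoxia and glycolysis list FL was called above in 25 and below in 1 of 27 (median 2.47). On the megakaryocyte list the counts were 8 and 1 of 14 (1.98). For DNA replication and mitosis they were 3 and 30 of 33 (-2.37), and for ribosome biogenesis and MYC targets 1 and 23 of 24 (-1.5). Bcl2 was the member on the list of p53 targets and apoptosis, with 20 tested genes, Csf2rb2 that of signalling receptors and kinases, with 32, and Scd1 that of lipid and fatty acid metabolism, with 24.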

How the data were processed

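The deposited values are whole-number read counts per Ensembl gene, not normalized. Per the submitters' processing notes, TopHat 1.4.1 and HTSeq 0.5.3p9 were used with mm9, besides DESeq 1.10.1 and cutadapt 1.1, and per the labels libraries came from an unstranded kit, so overlapping and antisense genes cannot be told apart. The annotation is not given in the sources used here. Closing rows that name no gene were left out. The closing row for alignments that were not unique held 38.7 to 53.3% of the tally. It held 42.3 to 47.1% in FL, 38.7 to 39.2% in delta45, 42.7 to 48.5% in KD and 50.6 to 53.3% in control. A read with several alignments may be tallied there more than once, so these need not be shares of reads.

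Genes were filtered by filterByExpr, scaled by TMM and fitted over 12 libraries with edgeR 4.0.16 in R 4.3.3, and p-values were adjusted over 12837 genes. Standard errors are the log2 change over the root of F. A permutation of 3 against 3 libraries cannot go below 0.1. In a simulation of FL against delta45 in 12520 genes, 24% of 50 genes changed 1.5-fold, 74% at 2-fold and 100% at 4-fold and 8-fold were recovered, with 12 false calls. All other genes were simulated with equal means in the groups, whereas 25.8% and 27.0% of tested genes were called higher and lower in the data. These rates may therefore not carry over to the data. DESeq2 1.42.0 was an alternative. Symbols matched 32919 of 37991 identifiers. Lengths and GC came from GENCODE M21 (GRCm38).

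Members and 24 lists were chosen with earlier results of these data known. Genes were named by rank of the smaller rescue ratio, control level, difference between rescue lines without overlap, closeness to control, list membership and nearness to a criterion; others are said to be chosen after their values were seen, as were Csf2rb, Abcg2, Xlr3a and Hbb-bs. Items withheld for evaluation are not reported here.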

Additional observations from a re-analysis of the deposited data

How the results depend on the processing

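Other settings were tried on 53 differences of single named genes that the main fit had called. These were 17 for FL against delta45, 17 for FL against control and 19 for delta45 against control. Of 1007 values under other settings, 977 kept their direction and side of the threshold, 30 lost the call and 0 reversed. Differences not called in the main fit were not followed in this way. Library totals in place of TMM gave 18 members higher and 16 lower in FL than in delta45, and 18 higher and 13 lower in FL than in control. Length and GC offsets, chosen after seeing the data, gave 20 members lower than control in FL and 44 in delta45. The part of length and GC in the results was not tested further. Counts over all tested genes under both settings are given with the results above. A restoration of 1.5-fold gave 147 members. The criteria were applied to library totals, while later levels and tests used TMM. Applied to TMM-scaled CPM, they gave 140 members, with all 97 among them and 43 gained. Group medians in place of means gave 125 members, 81 of them shared. Leaving out 1 library at a time, FL was above delta45 in 26 to 40 members and below it in 2 to 9, above control in 22 to 42 and below it in 5 to 9. The delta45 line was above control in 10 to 22 and below it in 15 to 25, the members numbered between 62 and 258, the extremes coming with KD replicate 3 or 1 left out, and Ldb1 in KD against control lay between -2.65 and -2.30 on the log2 scale. Leaving out KD replicate 3 raised the count of FL below delta45 to 9, and leaving out KD replicate 1 to 8. It was 2 without any delta45 replicate or without FL replicate 2 or 3. FL below control was 5 without any FL replicate. The cause of these changes was not tested. RLE scaling, other count filters and DESeq2 left all member counts within 1.5 times. Same-numbered libraries did not all correlate above 0.1 in the contrasts that carry a test here: correlations of deviations ran from 0.07 to 0.36 between delta45 and FL, -0.18 to 0.24 between FL and control and -0.30 to 0.26 between delta45 and control. They did so between KD and FL (0.14 to 0.33) and between KD and delta45 (0.12 to 0.33), contrasts that chose the members, where the block gave 97 members higher in FL than in KD and 97 higher in delta45 than in KD. With a replicate block FL was above delta45 in 31 and below it in 5, above control in 32 and below it in 8, and delta45 above control in 15 and below it in 21, with Ldb1 at -2.48. Members near a few CPM rest on few reads in KD, and small changes there are not detectable at this depth.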

Other observations

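All but 1 of the tested Y-linked genes were members. Kdm5d, Uty and Ddx3y met the criteria, and Eif2s3y did not, with ratios of 1.872 for FL over KD, 2.208 for delta45 over KD and 1.701 for control over KD. None of the member genes among them still met the criteria after the length and GC correction, with delta45 over KD ratios of 1.41 for Kdm5d, 1.287 for Uty and 1.451 for Ddx3y. Ddx3y was also no member without KD replicate 2 or 3, FL replicate 1 or 3, or control replicate 3. These genes were chosen after their values were seen. Kdm5d encodes a histone demethylase, Uty a relative of the demethylase Utx, Ddx3y an RNA helicase and Eif2s3y a translation initiation subunit. Among the 92 members placed along the chromosomes, 3 pairs were neighbours among tested genes: Zfp329 with Zfp110, Xlr3a with Xlr3b, and Uty with Ddx3y.

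Lengths and base compositions of the other genes lower in KD are given as values, with no test. The 80 genes that met the criterion in FL alone had a median transcript of 3903 bases and a GC share of 49.8%. The 103 that met it in delta45 alone had 4089 bases and 45.4%, and the 558 that met neither had 3099 bases and 51.3%.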
